A study of Mus musculus with 6 samples.

Results

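The CXCR3 axis was described through 4 genes: the ligands Cxcl9 and Cxcl10, their receptor Cxcr3, and the chemokine Cxcl16, which signals through another receptor. They were taken by symbol from a table of 23224 genes in 6 libraries of tumor dendritic cells (DC), and all 4 were found and were among the 13223 genes tested after a filter on low counts. Cxcr3 passed that filter through the CD103+ DC1 libraries, where it was high. The genes were chosen by their log2 differences between the groups, which were already known, so their levels and differences are a description without a test. Tests were kept for lists of partner, signalling and target genes.

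MC57-SIY fibrosarcoma cells had been growing under the skin of C57BL/6 mice for 7 days when DC were sorted from the pooled tumors, and SIY is a model antigen for CD8+ T cells. There were 3 groups: CD103+ DC1 from Rag2-/- hosts (replicates 2 and 3), ISG+ DC from Rag2-/- hosts (replicates 2 and 3) and ISG+ DC from wild-type (WT) hosts (replicates 1 and 2), with each group of 2 libraries described as independent experiments. Libraries are listed below in that order. Without Rag2 no mature T or B cells form, whereas NK cells remain, and no CD103+ DC1 of WT hosts were analysed here. The sources used here give no sort gates, ages of the mice or number of tumors per pool.

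CXCL9 and CXCL10 are secreted chemokines that draw CXCR3-bearing cells, chiefly activated T cells and NK cells, into inflamed tissue and tumors. Cxcl9 is known as a target of interferon-gamma, whereas Cxcl10 also answers type I interferon and NF-kB signals. CXCL16 is made as a membrane protein with a chemokine head on a mucin stalk, is released by metalloproteases, and binds CXCR6 on T cells and NK cells.

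The stretches just upstream of Cxcl9, Cxcl10 and Cxcr3 are shown because the levels of these genes parted between the groups. They are the 250 bases before each gene's start in RefSeq (build GRCm38.p6), all on the minus strand and read 5′ to 3′: Cxcl9 from chr5:92328080-92328329, Cxcl10 from chr5:92348890-92349139 and Cxcr3 from chrX:101734148-101734397. Capitals mark matches, on either strand, to an ISRE-like motif (GAAA, any 2 bases, GAAA), a GAS-like motif (TTCNNNGAA), the NF-kB consensus, an AP-1 motif (TGANTCA) and CCAAT.
Cxcl9: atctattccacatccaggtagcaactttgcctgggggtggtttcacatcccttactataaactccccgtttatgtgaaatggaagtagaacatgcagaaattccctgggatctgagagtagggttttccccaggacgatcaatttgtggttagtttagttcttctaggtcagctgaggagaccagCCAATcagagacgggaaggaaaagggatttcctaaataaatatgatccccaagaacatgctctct
Cxcl10: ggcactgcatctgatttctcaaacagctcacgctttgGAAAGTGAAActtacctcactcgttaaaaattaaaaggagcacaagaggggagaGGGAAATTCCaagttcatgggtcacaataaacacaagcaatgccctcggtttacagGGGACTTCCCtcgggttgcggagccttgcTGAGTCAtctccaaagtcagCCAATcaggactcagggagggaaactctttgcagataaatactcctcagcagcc
Cxcr3: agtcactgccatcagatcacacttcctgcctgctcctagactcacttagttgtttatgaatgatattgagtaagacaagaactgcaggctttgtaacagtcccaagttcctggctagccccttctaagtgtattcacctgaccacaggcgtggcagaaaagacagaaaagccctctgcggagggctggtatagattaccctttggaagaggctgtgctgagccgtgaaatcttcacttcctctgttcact
In the Cxcl10 stretch the ISRE-like match GAAAGTGAAA began 213 bases before the start, NF-kB consensus matches GGGAAATTCC and GGGACTTCCC began 159 and 103 bases before it, and the AP-1 match lay 74 bases before it. The Cxcl9 stretch held a CCAAT match alone, 65 bases before the start, and the Cxcr3 stretch held none of these letters. Cxcl9 and Cxcl10 shared the run CAGCCAATCAG of 11 bases, which began 68 and 57 bases before their starts and was found in 0.755% of promoters. Over 32851 promoter stretches of the same length, 2.98% held the ISRE-like motif, 7.02% the GAS-like motif, 3.9% the NF-kB consensus, 6.75% the AP-1 motif and 33.8% CCAAT. No pair of these motifs overlapped in the stretches shown. A match describes the letters and is not a measured binding site, and a lack of matches in this window says nothing of the factor.

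Library totals lay between 6023510 and 15368616 estimated counts, with the lowest total in CD103+ DC1 replicate 3. That library stood apart, with Spearman correlations over genes of 0.768 to 0.882 with the others, against 0.934 between the Rag2-/- ISG+ DC replicates and 0.921 between the WT ISG+ DC replicates. CD103+ DC1 replicate 2 correlated at 0.9 with Rag2-/- ISG+ DC replicate 2, above its 0.882 with CD103+ DC1 replicate 3. DC1 markers summed to 6013 to 10480 depth-normalized counts (CPM) in CD103+ DC1 and to 1112 to 1465 CPM in the ISG+ DC libraries. Markers of CD11b+ cDC2 summed to 135 to 159 CPM in CD103+ DC1 and 2730 to 3584 CPM in ISG+ DC. Rag2 itself had 39, 11, 40 and 2 counts in the libraries labelled Rag2-/- and 0 and 0 in those labelled WT. The sources used here do not say which part of the gene the allele lacks, so these reads do not check the labels, and directions between hosts hold only if the labels do.

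Cxcl9, the chemokine also called MIG, was highest in ISG+ DC of WT hosts and lowest in ISG+ DC of Rag2-/- hosts. Its level was 89.6 CPM in replicate 2 and 184 CPM in replicate 3 of CD103+ DC1, 23.3 and 34.3 CPM in the ISG+ DC of Rag2-/- hosts (replicates 2 and 3), and 272 and 194 CPM in those of WT hosts (replicates 1 and 2). Both Rag2-/- ISG+ DC libraries were thus the lowest of the 6, and neither comparison had overlapping groups. Groups of 2 libraries can lie apart without a call, as Ifngr1 did between populations (edgeR adjusted p = 0.47). The share of all genes without overlap was not counted. The group means of Cxcl9 were 137 ± 66.8 CPM in CD103+ DC1, 28.8 ± 7.82 CPM in Rag2-/- ISG+ DC and 233 ± 54.9 CPM in WT ISG+ DC (SD, n = 2 each). WT ISG+ DC and CD103+ DC1 are neighbours in that order whose ranges of 1 SD around the mean overlapped, with 194 CPM in the lower WT library and 184 CPM in the higher CD103+ DC1 library. Within Rag2-/- hosts Cxcl9 was 4.74-fold lower in ISG+ DC than in CD103+ DC1, a log2 difference of -2.25 ± 0.41 (SE). Without CD103+ DC1 replicate 3 this difference was -1.62. Between hosts Cxcl9 was 8.1-fold higher in the WT ISG+ DC, a log2 difference of 3.02 ± 0.42 (SE). These libraries are bulk samples, so fewer cells that make a transcript and less of it per cell cannot be told apart. Matrix markers of fibroblasts and fibrosarcoma cells were found too, with Col3a1 at 558.3 and 197.5, 532 and 299.5, and 135.9 and 8.28 CPM. Between hosts 9 of these 13 markers were lower and 4 higher in WT ISG+ DC, with a median log2 difference of -1.76, and none passed by edgeR. The part of such cells in the levels of the 4 genes was not tested.

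Cxcl10, the chemokine also called IP-10, was highest in ISG+ DC of Rag2-/- hosts and lowest in CD103+ DC1. The CD103+ DC1 libraries held 12.6 and 3.08 CPM, ISG+ DC of Rag2-/- hosts 139 and 105 CPM, and ISG+ DC of WT hosts 92.1 and 86.4 CPM. All 4 ISG+ DC libraries lay above both CD103+ DC1 libraries, which came from Rag2-/- hosts only. The group means were 7.83 ± 6.71, 122 ± 24.1 and 89.3 ± 4.03 CPM (SD, n = 2 each). Within Rag2-/- hosts Cxcl10 was 15.1-fold higher in ISG+ DC, a log2 difference of 3.91 ± 0.58 (SE). This size rested on CD103+ DC1 replicates that were 4.08-fold apart: the difference was 5.29 without replicate 2, which leaves a library of 18 counts, and 3.30 without replicate 3. Between hosts the log2 difference was -0.45 ± 0.51 (SE), smaller than its error, and it was -0.23 without Rag2-/- ISG+ DC replicate 2. The ISG+ DC groups of the 2 hosts did not overlap for Cxcl10, but their lowest and highest libraries, 105 and 92.1 CPM, were close.

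**Figure D1:**
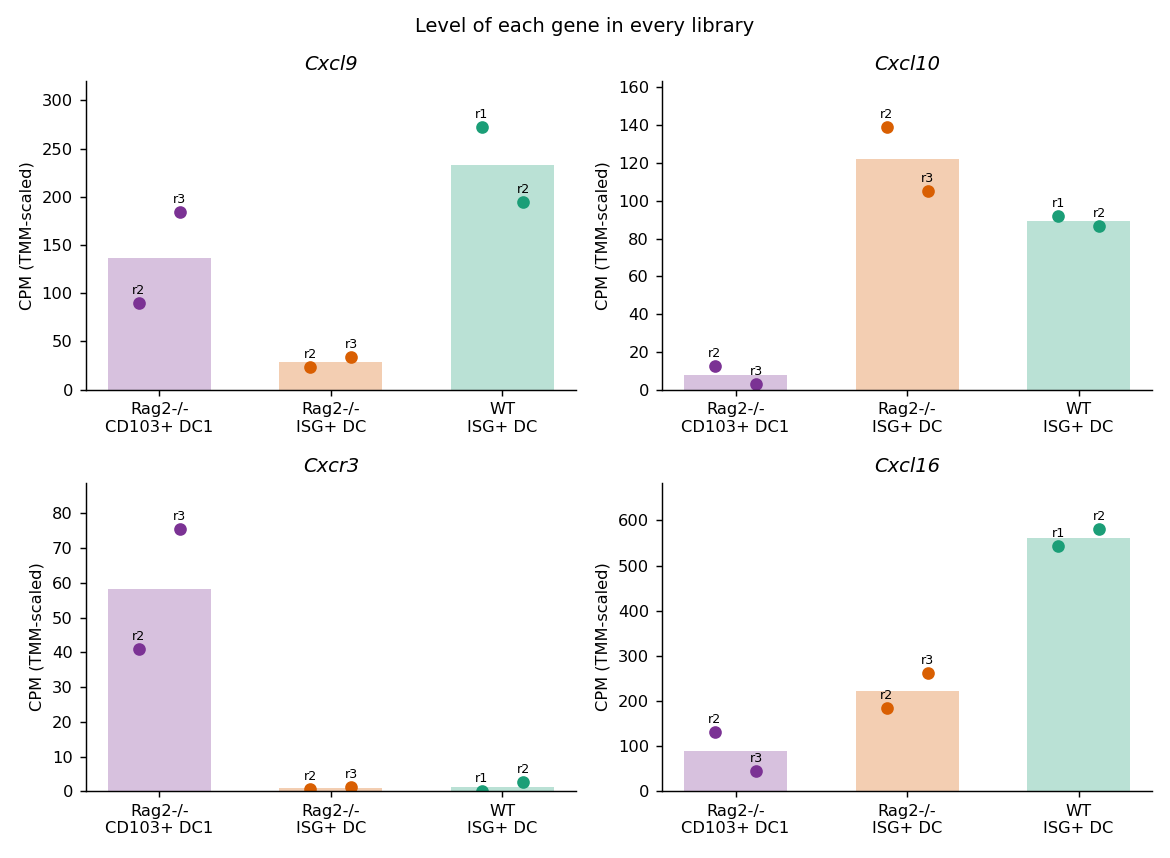
Levels of Cxcl9, Cxcl10, Cxcr3 and Cxcl16 in CPM on linear axes, with points for single libraries (r gives the replicate number) and bars for the mean of 2 libraries. Cxcl9 is lowest in the Rag2-/- ISG+ DC (23.3 and 34.3 CPM), Cxcl10 is lowest in CD103+ DC1 (12.6 and 3.08 CPM), Cxcr3 is near 0 in ISG+ DC and Cxcl16 is highest in WT ISG+ DC (543 and 581 CPM).

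Set against each other within a library, the ligands parted in both comparisons. The ratio of Cxcl9 counts to Cxcl10 counts does not depend on the scaling between libraries, and because the genes differ in length only its change between libraries is read. For each Cxcl10 count there were 7.13 and 59.7 Cxcl9 counts in the CD103+ DC1 libraries, 0.167 and 0.328 in ISG+ DC of Rag2-/- hosts, and 2.95 and 2.25 in ISG+ DC of WT hosts. The 3 groups did not overlap. On the log2 scale the mean ratio was 4.35 ± 2.14 for CD103+ DC1, -2.09 ± 0.68 for the ISG+ DC of Rag2-/- hosts and 1.37 ± 0.28 for those of WT hosts (SD, n = 2 each). From CD103+ DC1 to ISG+ DC of Rag2-/- hosts the ratio differed by -6.44 on the log2 scale, made up of less Cxcl9 and more Cxcl10. From the Rag2-/- to the WT ISG+ DC it differed by 3.46, where Cxcl9 alone differed by 3.02 and Cxcl10 by -0.45. The comparisons share the Rag2-/- ISG+ DC libraries, so their values are set side by side and not compared. With 1 library left out the population difference of the ratio ran from -7.95 to -4.92 and the host difference from 2.98 to 3.94. The sum of both ligands was 102 and 187 CPM in CD103+ DC1, 162 and 139 CPM in the ISG+ DC of Rag2-/- hosts and 364 and 281 CPM in those of WT hosts.

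**Figure D2:**
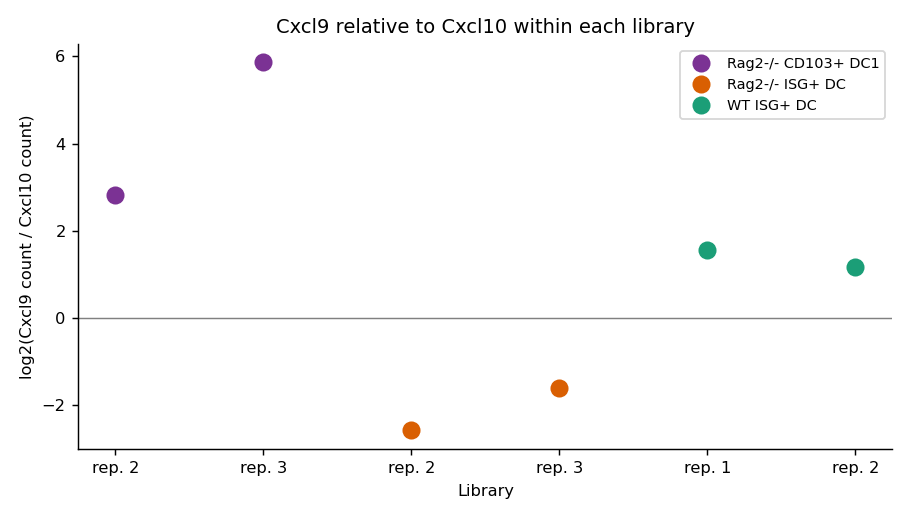
Log2 of the Cxcl9 count over the Cxcl10 count in each of the 6 libraries, 1 point per library, coloured by group; the grey line marks equal counts. Both Rag2-/- ISG+ DC libraries lie under 0 (-2.58 and -1.61), both WT ISG+ DC libraries above it (1.56 and 1.17), and the CD103+ DC1 libraries lie highest and farthest apart (2.83 and 5.86).

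Cxcr3, the G protein-coupled receptor that both ligands share, was a CD103+ DC1 transcript in these libraries. It had 618 and 441 counts in the CD103+ DC1 libraries (41.1 and 75.5 CPM). ISG+ DC of Rag2-/- hosts had 12 and 16 counts of it (0.755 and 1.17 CPM), and ISG+ DC of WT hosts 0 and 27 (0 and 2.69 CPM). The 0 in WT ISG+ DC replicate 1 allows up to 0.268 CPM, the level of 3 counts there, for counting error only. Within Rag2-/- hosts Cxcr3 was 60.2-fold lower in ISG+ DC (0.961 ± 0.291 CPM) than in CD103+ DC1 (58.3 ± 24.4 CPM; SD, n = 2 each), a log2 difference of -5.91 ± 1.33 (SE). The ISG+ DC groups overlapped between hosts, with a log2 difference of 0.47 ± 1.18 (SE). Markers of the lymphocytes known for Cxcr3 were read beside it, and none of the 11 T cell and 3 NK cell markers tested passed between populations by edgeR (2 and 1 at an unadjusted p under 0.05, 2 and 0 by DESeq2). The 17 T cell markers summed to 23.7 to 50.4 CPM in CD103+ DC1, 64.3 to 77.5 CPM in Rag2-/- ISG+ DC and 168 to 220.3 CPM in WT ISG+ DC, with Lat and Trat1 at 0 in all 6 libraries. Il7r alone, which other cells also express, made up 113 and 169 CPM of the WT sums. The 10 NK cell markers summed to 4.06 to 15.6, 63.8 to 73.2 and 10.8 to 25.8 CPM in the same order, with Klrb1c at 0 in all 6 libraries, and Klrd1 alone made up 68.5 and 60.0 CPM of the sums in the ISG+ DC of Rag2-/- hosts. The 8 B cell markers summed to 15.9 to 32.6 CPM in CD103+ DC1, of which Fcrla made up 30.0 and 15.6 CPM, and to at most 5.01 CPM in ISG+ DC. The B cell sum was thus higher where Cxcr3 was, with 1 of 2 tested markers (Fcrla) passing, while the defining marker Ms4a1 was at 0 in all 6 libraries. Of the 10 plasmacytoid DC markers, a cell type that can also carry Cxcr3, the sum was 129 to 154 CPM in CD103+ DC1 and 184 to 260 CPM in ISG+ DC. Bst2, also an interferon target, made up 25.0 to 73.6 CPM of these sums, and Runx2 52.7 to 83.5 CPM. Siglech, which was not tested, was at 0.133 and 3.60 CPM in CD103+ DC1 and at most 0.0894 CPM in ISG+ DC. Among the 6 markers tested, 4 were higher and 2 lower in Rag2-/- ISG+ DC than in CD103+ DC1, and none passed by edgeR.

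Cxcl16 was highest in WT ISG+ DC and was higher in ISG+ DC than in CD103+ DC1. The CD103+ DC1 libraries held 131 and 45.4 CPM, ISG+ DC of Rag2-/- hosts 184 and 263 CPM, and ISG+ DC of WT hosts 543 and 581 CPM. The 3 groups did not overlap, and their means were 88.4 ± 60.9, 223 ± 55.4 and 562 ± 27.1 CPM (SD, n = 2 each). Within Rag2-/- hosts Cxcl16 was 2.52-fold higher in ISG+ DC, a log2 difference of 1.33 ± 0.42 (SE), which was 0.78 without CD103+ DC1 replicate 3 and 2.29 without replicate 2. Between hosts it was 2.52-fold higher in WT ISG+ DC, a log2 difference of 1.33 ± 0.42 (SE). Its counts, like those of Cxcl9 and unlike those of Cxcl10 and Cxcr3, were not whole numbers in any library, as happens when reads that fit several genes are shared out. In the RefSeq annotation of GRCm38 the gene overlaps Zmynd15, which was at 4.19 and 5.31, 20.9 and 9.55, and 47.9 and 91.5 CPM in the same libraries. The part of shared reads in the Cxcl16 and Cxcl9 levels was not tested.

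**Figure D3:**
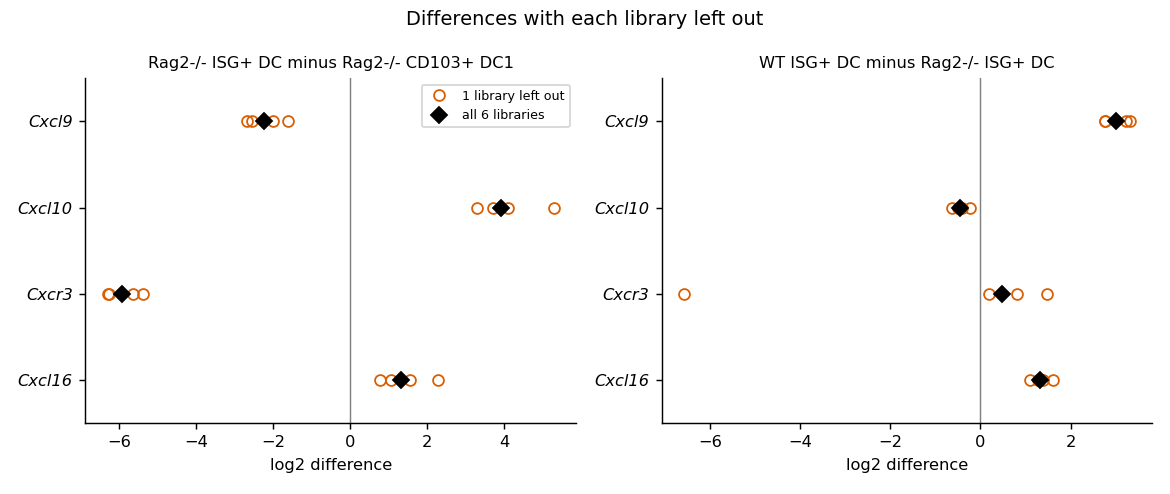
Log2 differences of the 4 genes between populations (left) and hosts (right), with diamonds for all 6 libraries and open circles for fits with 1 library left out. All circles of Cxcl9, Cxcl10 and Cxcl16 keep the side of 0 of their diamond, while Cxcr3 between hosts runs to -6.58 when WT ISG+ DC replicate 2 is left out, a fitted value against a library at 0 counts and not a measured size.

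The partners of these proteins were taken as a list of 13 genes, all tested. Of all genes tested within Rag2-/- hosts, 3.69% (488 genes) had an adjusted p under 0.05 by the quasi-likelihood test of edgeR (Benjamini-Hochberg), 2.83% higher and 0.862% lower in ISG+ DC. Between hosts 0.552% (73 genes) did, 0.287% higher and 0.265% lower in those of WT hosts. Of the 13 partners, 1 rose and none fell between populations, with a median log2 difference of 0.39 against -0.02 over all genes. None passed between hosts, with 3 at an unadjusted p under 0.05, 2 higher and 1 lower by DESeq2, and a median of 0.45 against -0.03.

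Rhbdf2, which encodes iRhom2, the partner that carries ADAM17 to the cell surface, was the partner that passed. It was at 18.6 and 16.3 CPM in CD103+ DC1, 74.8 and 85.4 CPM in Rag2-/- ISG+ DC and up to 119 CPM in WT ISG+ DC, and rose by 2.20 ± 0.36 on the log2 scale between populations (edgeR adjusted p = 0.00663). Adam10, the protease that sheds CXCL16 constitutively, was at 90.1 and 72.3, 166 and 176, and 248 and 202 CPM, and its population difference of 1.07 ± 0.28 did not pass (edgeR adjusted p = 0.0673). Adam10 did pass by DESeq2 (adjusted p = 0.00652), with no filter (0.0217) and without CD103+ DC1 replicate 2 (0.00518) or 3 (0.0434). Adam17, the protease of induced shedding, was at 84.1 and 74.0, 119.6 and 89.3, and 244 and 237 CPM, and its host difference of 1.21 ± 0.29 did not pass (edgeR adjusted p = 0.0994), though it did by DESeq2 (0.00271), with no filter (0.017) and with the 4 libraries alone (0.018). Both proteases thus had their highest libraries in WT ISG+ DC, as Cxcl16 did. Cxcr6, the receptor of CXCL16, was low throughout, between 2.48 and 9.03 CPM, and passed in neither comparison (edgeR adjusted p = 0.903 and 0.905).

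Dpp4, the surface peptidase that clips CXCR3 ligands, was at 376 and 527 CPM in CD103+ DC1, 329 and 266 CPM in the ISG+ DC of Rag2-/- hosts and 102 and 171 CPM in those of WT hosts. It was lowest in the libraries with most Cxcl9, and its host difference of -1.12 ± 0.31 did not pass (edgeR adjusted p = 0.167), though it did by DESeq2 (0.0362), with no filter (0.00807) and with the 4 libraries alone (0.0485). Pf4, a platelet chemokine that can bind CXCR3, was at 8.58 to 19.9 CPM in the Rag2-/- libraries and at 61.1 and 90.2 CPM in WT ISG+ DC (host difference 2.32 ± 0.55, edgeR adjusted p = 0.0972, but 0.00398 by DESeq2, 0.00252 with no filter and 0.0115 with the 4 libraries alone). Cxcl11, the remaining interferon-inducible CXCR3 ligand, for which C57BL/6 mice are known to carry a defective allele, ranged from 0.199 to 12.7 CPM with overlapping groups in both comparisons.

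**Figure D4:**
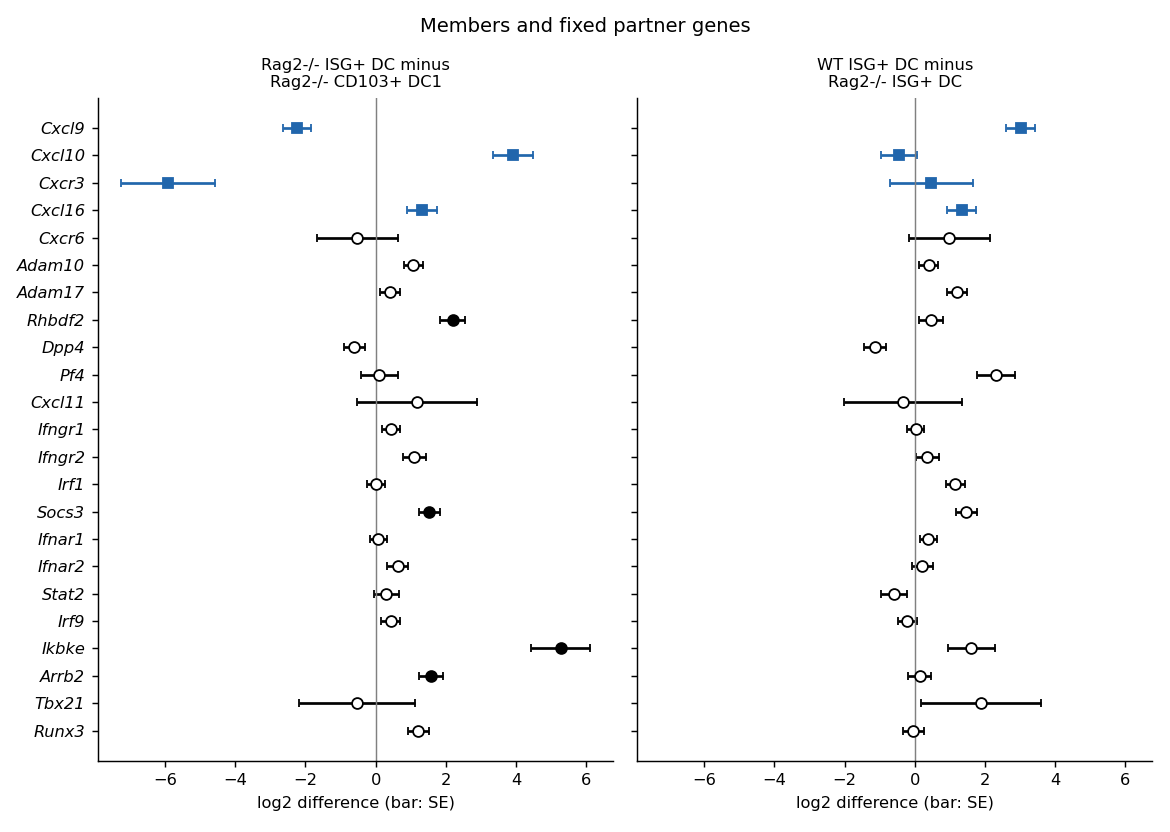
Log2 differences with SE bars for the 4 genes (blue squares, given without a test) and for named partner and signalling genes (circles, filled where the adjusted p is under 0.05), between populations (left) and hosts (right). Rhbdf2, Socs3, Ikbke and Arrb2 are filled on the left, and no circle is filled on the right.

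Transcripts of the interferon-gamma receptor were found in every library, and those of its ligand in none. Ifng was at 0 counts in all 6 libraries, as were the type I genes Ifnb1 and Ifna4, which allows up to 0.189 to 0.514 CPM per library (3 counts). Ifngr1, the ligand-binding receptor chain, was at 281 to 498 CPM over the 6 libraries, and Ifngr2, the signalling chain, at 49.3 to 192 CPM. Neither passed in either comparison by edgeR with all libraries, TMM scaling and the filter on low counts. Irf1, an interferon-induced factor that itself binds chemokine promoters, was at 168 and 125 CPM in CD103+ DC1, 151 and 145 CPM in Rag2-/- ISG+ DC and 341 and 320.3 CPM in WT ISG+ DC. It was thus higher in both WT libraries, as Cxcl9 was, but its host difference of 1.16 ± 0.27 did not pass (edgeR adjusted p = 0.0893), though it did by DESeq2 (0.000847), with no filter (0.0116) and with the 4 libraries alone (0.00853).

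Of the 10 interferon-gamma signalling genes tested, Socs3 alone passed between populations. Socs3, a feedback inhibitor of cytokine receptors, was at 38.8 and 46.9, 150.4 and 97.2, and 335 and 349 CPM in the 3 groups and rose by 1.53 ± 0.30 (edgeR adjusted p = 0.0184), a call lost with the 4 libraries alone (adjusted p = 0.0974) and, at 1.18, without Rag2-/- ISG+ DC replicate 2. By DESeq2 2 of the list passed, both higher, and likewise 2 by edgeR with no filter. Ifngr2 passed in both, at 1.06 by DESeq2 (adjusted p = 0.0352) and 1.10 with no filter (edgeR adjusted p = 0.0237). Without CD103+ DC1 replicate 2 Ifngr2 differed by 1.58. Between hosts all 10 had positive log2 differences with a median of 0.41 (8 of 10 positive with library totals, without Rag2-/- ISG+ DC replicate 3 or without WT ISG+ DC replicate 2), but none passed by edgeR, with 2 at an unadjusted p under 0.05 and 2 higher by DESeq2.

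Of the type I interferon receptor chains, Ifnar1 was at 232 to 374 CPM over the 6 libraries and Ifnar2 at 80.5 to 168 CPM, with both CD103+ DC1 libraries lowest for Ifnar2. Stat2 and Irf9, members of the complex that binds ISRE motifs, were at 170 to 398 CPM and 112 to 184 CPM. None of these 4 passed in either comparison by edgeR with all libraries, but without CD103+ DC1 replicate 2 Stat2 differed by 1.04 between populations (adjusted p = 0.00888). Ikbke, a kinase that activates IRF3, was the 1 of 10 tested type I signalling genes to pass between populations. Without CD103+ DC1 replicate 2 the median of the 10 was 0.78, against 0.157 over all genes. Ikbke was at 2.06 and 0 CPM in CD103+ DC1 against 36.0 and 60.3 CPM in Rag2-/- ISG+ DC and 124 and 170 CPM in WT ISG+ DC. Its log2 difference was 5.27 ± 0.83 (edgeR adjusted p = 0.00557), or 4.56 without CD103+ DC1 replicate 3, and the fitted 12.09 without replicate 2 is not a measured size because the remaining library was at 0. Between hosts none of the 10 passed by edgeR, with 3 at an unadjusted p under 0.05, 2 lower by DESeq2 and a median of 0.00 (-0.12 to 0.018 with 1 library left out).

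Target genes of the interferons were followed as 2 lists, since Cxcl9 is usually counted with the interferon-gamma targets and Cxcl10 with both; neither gene was in the lists. Many genes answer both interferons, so the lists are a convention. Of 25 type I interferon-associated targets, 12 rose and none fell in Rag2-/- ISG+ DC against CD103+ DC1, with a median log2 difference of 1.36 and a positive difference in 23. ISG stands for interferon-stimulated gene, so a rise of such genes between populations goes with the cells' name and is not separate evidence. Between hosts the same list had a negative difference in all 25, with a median of -0.96, and 3 fell and none rose in WT ISG+ DC. That sign held for all 25 under every alternative run, but the number that fell was 0 without Rag2-/- ISG+ DC replicate 2, 1 without WT ISG+ DC replicate 2, and 11 by DESeq2.

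The type I targets with the smallest p-values between populations each had their 2 highest libraries in Rag2-/- ISG+ DC, except Siglec1. Oasl2, of the oligoadenylate synthetase family, was at 144 and 110 CPM in CD103+ DC1, 639 and 604 CPM in the ISG+ DC of Rag2-/- hosts and 345 and 389 CPM in those of WT hosts, a rise of 2.29 between populations (edgeR adjusted p = 0.00102). Ddx58, the RNA sensor RIG-I, was at 70.3 and 39.4, 388 and 321, and 132 and 106 CPM and rose by 2.69 (edgeR adjusted p = 0.00176). Ifit3, an antiviral protein of the IFIT family, was at 138 and 61.2, 779 and 647, and 140.2 and 132 CPM. It rose by 2.83 between populations (edgeR adjusted p = 0.00199), or 3.54 without CD103+ DC1 replicate 2, and fell by 2.39 ± 0.36 between hosts (edgeR adjusted p = 0.0224). Ms4a4c, Siglec1, a sialic acid receptor, and Oas2, another oligoadenylate synthetase, rose 8.16-fold, 8.33-fold and 4.54-fold between populations (edgeR adjusted p = 0.00102, 0.00172 and 0.00172).

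Besides Ifit3, the type I targets that fell between hosts were Mx1 and Ifit2. Mx1, an antiviral GTPase, was at 533 and 429 CPM in CD103+ DC1, 658 and 594 CPM in the ISG+ DC of Rag2-/- hosts and 202 and 163 CPM in those of WT hosts, and fell by 1.78 ± 0.25 between hosts (edgeR adjusted p = 0.0159). Ifit2 was at 424 and 571, 951 and 760.1, and 324 and 307 CPM and fell by 1.44 between hosts (edgeR adjusted p = 0.0393). With replicate 2 of the Rag2-/- ISG+ DC left out the host calls of Ifit3 (-2.25), Mx1 (-1.70) and Ifit2 (-1.27) were lost, and the call of Ifit2 was lost with any of the 4 ISG+ DC libraries left out. Mx1 also lost its call without WT ISG+ DC replicate 2, at -1.64. Beside these targets, Cxcl10 itself differed by 3.91 between populations and by -0.45 between hosts.

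Of 23 interferon-gamma-associated targets tested, 5 rose and none fell in WT against Rag2-/- ISG+ DC, with a median of 0.58 and a positive difference in 19. Tgtp1, the target of the list of 24 that the filter left out, went the other way. Its mean was 29.8 CPM in Rag2-/- ISG+ DC, and it was at 0 in the WT ISG+ DC and CD103+ DC1 libraries. Cd274, which encodes PD-L1, was at 102 and 135 CPM in CD103+ DC1, 117 and 130.1 CPM in Rag2-/- ISG+ DC and 499 and 528 CPM in WT ISG+ DC. It rose by 2.05 ± 0.27 between hosts (edgeR adjusted p = 0.0159). Nos2, the inducible nitric oxide synthase, was at 0 and 0.343, 0.881 and 2.99, and 225 and 481 CPM and rose by 7.52 ± 0.76 (edgeR adjusted p = 0.00557), or 6.86 to 8.63 with 1 library left out. Nos2 was therefore a WT ISG+ DC transcript in these libraries, whereas Cxcl9 was also high in CD103+ DC1.

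The remaining interferon-gamma targets that rose between hosts were interferon-inducible GTPases that act on vacuoles of intracellular microbes. Gbp2 was at 56.3 and 31.2, 201 and 228, and 617 and 874 CPM and rose by 1.80 ± 0.32 (adjusted p by edgeR = 0.0447). Gbp6 was at 22.8 and 20.9, 45.8 and 52.9, and 163 and 197 CPM (rise 1.87, edgeR adjusted p = 0.0393), and Iigp1 at 28.0 and 26.6, 55.8 and 52.4, and 214 and 182 CPM (rise 1.87, edgeR adjusted p = 0.0332). With replicate 2 of the Rag2-/- ISG+ DC left out, Nos2 was the 1 target of the list that rose, Cd274 was at 1.98 without a call, and 1 fell. Gbp2 and Gbp6 also lost their calls without Rag2-/- ISG+ DC replicate 3 and without WT ISG+ DC replicate 2, and with library totals in place of TMM scaling (adjusted p = 0.0596 and 0.0538), which left 3 of the list higher, and Iigp1 lost its call with any of the 4 ISG+ DC libraries left out.

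Between populations 3 interferon-gamma-associated targets rose and 1 fell, with a median of 0.75. Gbp2 rose by 2.29 (edgeR adjusted p = 0.00331), Gbp7 by 1.98 (edgeR adjusted p = 0.00263), and Fcgr1, the IgG receptor CD64, by 3.43 (edgeR adjusted p = 0.000527). Psmb9, an immunoproteasome subunit, was at 121 and 167 CPM in CD103+ DC1, 41.4 and 41.6 CPM in Rag2-/- ISG+ DC and 48.0 and 41.1 CPM in WT ISG+ DC. It fell by 1.79 between populations (edgeR adjusted p = 0.0163), a call lost without either Rag2-/- ISG+ DC library, at -1.79 in both. Psmb9 was the target that fell with the lower Cxcl9 between populations, but between hosts, where Cxcl9 was higher in WT ISG+ DC, it differed by 0.10. The list's median was 0.84 without CD103+ DC1 replicate 2 (0.157 over all genes) and 0.89 without replicate 3 (0.00768 over all genes). Fcgr1 is also a macrophage and monocyte marker, and 9 of the 12 markers of those cells rose between populations. Their sum was 500 to 648 CPM in CD103+ DC1, 2225 to 3091 CPM in the ISG+ DC of Rag2-/- hosts and 5864 to 6411 CPM in those of WT hosts. Between hosts 1 of the 12 rose by edgeR (8 by DESeq2), Apoe, which was 7.63-fold higher in WT ISG+ DC (edgeR adjusted p = 0.0194), and the list's median was 1.41. Differences were positive in 9 of the 12 and negative in 3: Ly6c2 (-1.49), Fcgr1 (-0.32) and Ccr2 (-0.04). Apoe alone made up 2032 and 1656 CPM of the WT sums. Of 3 neutrophil markers tested, Csf3r rose between hosts by 2.90 (edgeR adjusted p = 0.035). Cxcr2 (-0.80) and Mmp9 (-2.15) went the other way without passing. S100a8 was at 0 in all 6 libraries, and S100a9 was at 4.11 CPM in WT ISG+ DC replicate 1 and at 0 in the rest. Apoe and Csf3r were thus higher in WT ISG+ DC, as Cxcl9 and the interferon-gamma targets were, and their part in the chemokine and target levels was not tested.

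**Figure D5:**
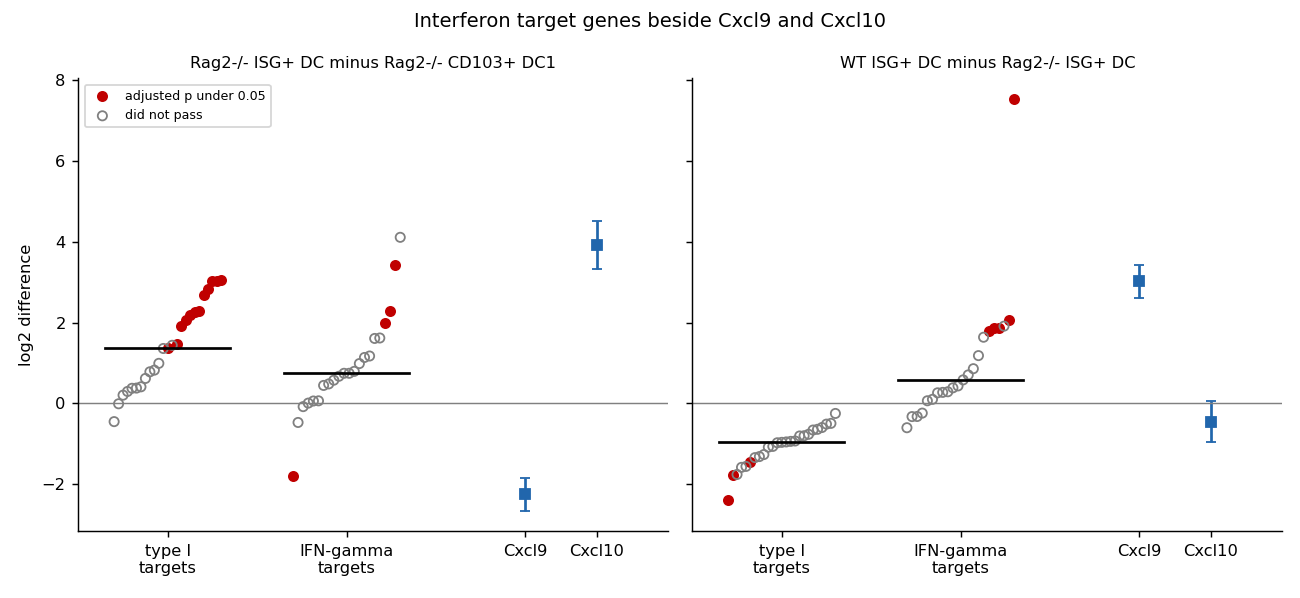
Log2 differences of the type I and interferon-gamma target genes (circles, red where the adjusted p is under 0.05, black bars for list medians) beside Cxcl9 and Cxcl10 (blue squares with SE), between populations (left) and hosts (right). Medians are 1.36 and 0.75 on the left and -0.96 and 0.58 on the right; Ido1, at 0 in a whole group, counts in the medians but has no circle.

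In the NF-kB list, 2 of 20 genes rose and 1 fell between populations, with a median of 0.85. Nfkbiz, a nuclear co-regulator of NF-kB, was at 26.1 and 35.1, 154 and 207, and 253 and 237 CPM and rose by 2.56 (edgeR adjusted p = 0.00153). Nfkbia, the inhibitor IkB-alpha, was at 77.3 and 62.5, 143 and 172, and 212 and 233 CPM and rose by 1.17 (edgeR adjusted p = 0.0486), a call lost without either Rag2-/- ISG+ DC library, with DESeq2 size factors, library totals, the 4 libraries alone and the replicate block (adjusted p of 0.0542 to 0.41 over these 6 edgeR fits). Tlr3, a sensor of double-stranded RNA that is also a DC1 marker, was at 331 and 343, 25.6 and 42.7, and 8.94 and 29.1 CPM and fell by 3.30 (edgeR adjusted p = 0.0053). Without CD103+ DC1 replicate 2 the list's median was 1.28 (0.157 over all genes), and without replicate 3 it was 0.63 (0.00768 over all genes). Between hosts none passed by edgeR, with 4 at an unadjusted p under 0.05, 1 higher by DESeq2 and a median of 0.08 (-0.085 to 0.099 with 1 library left out).

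On the side of the receptor, 1 of 21 genes of chemokine receptor signalling rose between populations. Arrb2, the beta-arrestin that uncouples and internalizes chemokine receptors, was at 76.6 and 51.7, 153 and 232, and 243 and 183 CPM and rose by 1.58 ± 0.33 (edgeR adjusted p = 0.0263), a call lost with the 4 libraries alone (adjusted p = 0.0691) and, at 1.26, without Rag2-/- ISG+ DC replicate 3. The median of the 21 was 0.82 without CD103+ DC1 replicate 2 (0.157 over all genes) and 0.16 without replicate 3 (0.00768 over all genes). Between hosts none of the 21 passed by edgeR, with 4 at an unadjusted p under 0.05 and 1 higher by DESeq2.

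A further list held 5 factors that drive Cxcr3 in lymphocytes. None passed in either comparison by edgeR, with 1 at an unadjusted p under 0.05 between populations and 0 between hosts, and 1 and 0 by DESeq2. Tbx21, which encodes T-bet, was at 2.86 and 4.97 CPM in CD103+ DC1, 5.22 and 0.146 CPM in Rag2-/- ISG+ DC and 18.0 and 1.90 CPM in WT ISG+ DC, with overlapping groups. Runx3, a partner of T-bet, was at 91.8 and 60.5, 169 and 186, and 175 and 171 CPM, so that it was lower where Cxcr3 was high (population difference 1.22 ± 0.30, edgeR adjusted p = 0.0543). Runx3 passed by DESeq2 (adjusted p = 0.00388), with no filter (0.00718) and without CD103+ DC1 replicate 2 (0.000969) or 3 (0.039).

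Other CXC, CX3C and XC chemokines and receptors were listed as 19 genes, of which 13 were tested. Between populations 3 rose and 1 fell, with a median of 0.15. Cxcl2, a neutrophil attractant, was at 0 in both CD103+ DC1 libraries, 5.16 and 14.8 CPM in Rag2-/- ISG+ DC and 60.8 and 51.5 CPM in WT ISG+ DC. The Rag2-/- ISG+ DC mean was at least 69.5-fold higher than the level of 3 counts over the CD103+ DC1 group (edgeR adjusted p = 0.00331). Cxcl3, a close relative, was likewise at 0 in CD103+ DC1 and at 1.32 and 3.21, then 37.3 and 64.5 CPM, at least 15.8-fold higher between populations (edgeR adjusted p = 0.019). Both lost their calls when the 4 Rag2-/- libraries were fitted alone.

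Cxcr4, the receptor of CXCL12, was at 5.85 and 7.02, 34.4 and 57.5, and 151 and 108 CPM and rose by 2.84 ± 0.44 (edgeR adjusted p = 0.00494). Xcr1, the DC1 receptor of XCL1, was at 316 and 231, 4.53 and 9.04, and 3.04 and 4.59 CPM and fell by 5.33 ± 0.47 (edgeR adjusted p = 0.000433). Cxcr3 and Xcr1 were thus both high in CD103+ DC1 and low in the ISG+ DC of both hosts, the reverse of Cxcr4. Between hosts none of the 13 passed by edgeR, with 5 at an unadjusted p under 0.05, 4 higher by DESeq2 and a median of 0.88. Without WT ISG+ DC replicate 1 that median was -0.28 and 1 gene rose, and with no filter it was 0.

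The genes whose levels followed each of the 4 most closely were ranked by Pearson's r of log2(CPM + 1) over the 6 libraries, among 8094 genes whose mean reached 10 CPM. These r values are descriptions over 3 groups of 2 libraries that also differ in depth. For Cxcl9 the closest were Phtf2 (0.984), Plekhn1 (0.98), Nr4a2 (0.975), Tbx5 (0.97) and Lamtor2 (0.969). Nr4a2, a nuclear receptor of the immediate-early kind, was at 63.3 and 95.2, 26.8 and 44.8, and 98.6 and 97.5 CPM. For Cxcl10 they were Pbxip1 (0.998), Il18rap (0.997), Cdk13 (0.997), Shb (0.996) and Sirpb1a (0.996). Il18rap, a chain of the IL-18 receptor, was at 3.13 and 0.171, 49.3 and 46.4, and 28.5 and 28.6 CPM.

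For Cxcr3 the closest were Serpinb6b (0.998), Hp1bp3 (0.993), Prkar2a (0.992), Tuba4a (0.991) and Cldn25 (0.99). Serpinb6b was at 99.3 and 135 CPM in CD103+ DC1 and 29.4 to 48.3 CPM in ISG+ DC. For Cxcl16 they were Slc7a8 (0.998), Ptgs2 (0.998), Junb (0.997), Matk (0.995) and Nlrp1b (0.995). Ptgs2, the prostaglandin synthase COX-2, was at 11.4 and 1.2, 29.2 and 55.3, and 198 and 190 CPM. No gene was among the closest 5 of more than 1 of the 4. Among the 4 themselves r was -0.38 for Cxcl9 with Cxcl10, 0.229 for Cxcl9 with Cxcr3, 0.149 for Cxcl9 with Cxcl16, -0.96 for Cxcl10 with Cxcr3, 0.827 for Cxcl10 with Cxcl16 and -0.82 for Cxcr3 with Cxcl16.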

How the data were processed

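The authors deposited estimated counts for each gene symbol and library, unscaled, of which 16.1% are not whole. The submitters' processing notes name Bowtie 1.2.3, RSEM 1.3.1 and the mm9 build; annotation and strand setting were not given in the sources used here, and overlapping genes and near-identical families (Gbp, Oas, Ifit, Sirpb) are therefore uncertain. Per the labels' protocols, a stranded low-input total RNA kit was used, although the labels' molecule field names polyA RNA.

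Counts were rounded and fitted over all 6 libraries in R 4.3.3 with edgeR 4.0.16 (filterByExpr, TMM, glmQLFit, glmQLFTest; 3 residual and 7.34 prior degrees of freedom; two-sided, adjusted over 13223 genes, threshold 0.05). Host and population comparisons are both read from that fit. CPM values are TMM-scaled; 0.5 was added to each count before log2 of the Cxcl9 to Cxcl10 ratio. Limits of 3 counts and all levels cover counting error only, since the reads carry no molecular identifiers and need not be independent. With 2 libraries a group, p-values measure the spread between independent experiments on pooled tumors, shared over the groups.

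The 4 genes and the gene lists were chosen with earlier results of these data known. Besides the 4 genes, list genes that passed (up to 6 per list and comparison, by smallest p), a fixed set of receptors, proteases and factors, and the 5 genes most like each of the 4 are named, except items not reported here; Zmynd15 and marker genes were added after their values were seen. The promoters come from RefSeq on GRCm38.p6, not the files' build, and 3 of the 4 genes matched an entry. On simulated counts the procedure recovered 52% of genes changed 4-fold and 86% of those changed 16-fold between populations (12712 genes, 6.12% of calls false), and 52% and 88% between hosts (12732 genes, 1.41% of calls false). Alternatives were DESeq2 1.42.0, its size factors, library totals, no filter, the 4 libraries alone, a replicate block and leaving out each library.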

Additional observations from a re-analysis of the deposited data

How the results depend on the processing

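By edgeR, 488 genes passed between populations; the number was 1077 with DESeq2, 1087 with no filter on low counts, 297 with the 4 libraries of the groups alone, and 278 to 2068 with 1 library left out (774 without CD103+ DC1 replicate 3 and 2068 without replicate 2). Between hosts 73 passed; the number was 545 with DESeq2, 555 with no filter, 444 with the 4 libraries alone, and 27 to 198 with 1 library left out (27 without Rag2-/- ISG+ DC replicate 2, 198 without WT ISG+ DC replicate 1). The causes were not tested. With the replicate number as a block, 715 genes passed between populations, and Cxcl9 was at -2.18, Cxcl10 at 4.21, Cxcr3 at -5.88 and Cxcl16 at 1.5. Deviations of libraries with the same number correlated at -0.00239 over 13223 genes. The 2 pairs are mirror images of each other, so this value cannot decide whether the numbers pair the libraries. The main fit left the numbers out, and the pairing is unknown. No paired analysis was possible for the hosts because the groups share only replicate number 2.

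With 1 library left out the population differences ran from -2.68 to -1.62 for Cxcl9, 3.30 to 5.29 for Cxcl10, -6.29 to -5.39 for Cxcr3 and 0.78 to 2.29 for Cxcl16, and the host differences from 2.75 to 3.32 for Cxcl9, -0.64 to -0.23 for Cxcl10, -6.58 to 1.48 for Cxcr3 and 1.10 to 1.61 for Cxcl16. The signs of named genes that passed in neither comparison turned in 16 instances. Irf1 between populations was at -0.019 with DESeq2 size factors and -0.020 with DESeq2, and Ifngr1 between hosts was at -0.058 with library totals. With 1 library left out, between populations, Cxcl11 ran from -0.82 to 5.15, Irf1 from -0.16 to 0.24, Pf4 from -0.40 to 0.84, Stat2 from -0.16 to 1.04 and Tbx21 from -4.64 to 0.42; between hosts, Cxcl11 ran from -1.83 to 1.67, Ifngr1 from -0.13 to 0.15, Runx3 from -0.11 to 0.026 and Tbx21 from -0.50 to 5.98. Library totals moved the host median of all genes from -0.03 to -0.11. Depth limits low values such as Cxcr3 in ISG+ DC, at 0 to 27 counts per library.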

Other observations

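The genes that lie beside Cxcl9 and Cxcl10 were looked at after the levels of the ligands were known. In the RefSeq order on chromosome 5 (GRCm38) Cxcl9 and Cxcl10 are separated by the start of Art3, whose annotated span covers Cxcl10, and Art3 was at 0 to 4.28 CPM. On the Cxcl9 side, Sdad1, a nucleolar protein gene, was at 265 and 438 CPM in CD103+ DC1, 56.9 and 52.2 CPM in Rag2-/- ISG+ DC and 40.9 and 57.0 CPM in WT ISG+ DC. It fell by 2.69 between populations (edgeR adjusted p = 0.00176) and differed by -0.16 between hosts (edgeR adjusted p = 0.972). The next gene, Naaa, an acid amidase that is also a DC1 marker, was at 1977 and 1047 CPM in CD103+ DC1, 225 and 301 CPM in the ISG+ DC of Rag2-/- hosts and 405 and 434 CPM in those of WT hosts, and fell by 2.52 between populations (edgeR adjusted p = 0.00176). On the Cxcl10 side, Nup54 was at 17.0 to 52.2 CPM and Scarb2 at 112 to 196 CPM, and neither passed in either comparison. Cxcl9 thus shared its lower level in Rag2-/- ISG+ DC with both neighbours on its side, while its higher level in WT ISG+ DC was shared by neither at the test's threshold.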
